A study of Homo sapiens with 6 samples.

Results

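The DEAD and DEAH box helicase genes are the genes whose deposited name is DDX or DHX followed by a number and at most 1 letter. Across both peak lists 49 genes met this rule, 34 DDX and 15 DHX genes, out of 16810 genes with a peak. Methylated RNA immunoprecipitation sequencing (MeRIP-seq), in which an antibody against N6-methyladenosine (m6A) enriches methylated RNA fragments, was applied to MHCC97H cells, a line from human hepatocellular carcinoma. The control cells received DMSO and the treated cells 2 µM FB23-2, an inhibitor of the m6A demethylase FTO, for 48 h, with 3 samples in each group. The aim, per the design text, was to find what FB23-2 acts on by blocking FTO. Each treatment has 1 deposited peak list whose columns name no sample, so every value below is a value of a pooled list, without a replicate check and without a test between treatments. All cells belong to 1 line, and nothing in the labels says that the samples came from separate cultures.

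DEAD and DEAH box proteins are ATP-driven enzymes named for a conserved motif of their helicase core. DEAD box proteins pry short RNA duplexes apart locally or clamp RNA, whereas DEAH box proteins mostly move along a strand and pull it out of its partners. Together they drive nearly every step in the life of an RNA, from splicing and ribosome assembly through export and translation to decay and the sensing of foreign RNA. Some are tied to m6A itself: DDX3X and DDX46 have been reported to bind ALKBH5, the other m6A demethylase. FTO removes the methyl group from internal m6A and also from m6Am, the methylated adenosine next to the cap of many mRNAs, and m6A antibodies bind both.

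Antibody-enriched segments that begin at the cap are a place where these marks meet, and m6A is mostly laid down in a short consensus of which GGAC is a common form. Other forms of the consensus were not searched for, so a start without GGAC may still hold it. The first 50 transcribed bases were available from RefSeq (GRCh38.p14) for 58 annotated starts of 44 helicase genes, and the transcript strand was searched for the letters GGAC. They occurred in 12 of the 58 starts (20.7%), against 6632 of 35116 annotated starts of all genes (18.9%). At least 25 of the 50 bases lay under a helicase peak at 20 starts of 16 genes. Of these 20 starts 7 (35%) held GGAC, and of the 38 others 5 (13.2%), a difference that was not tested. The share among starts of all genes under a peak was not counted, so the difference cannot be called particular to helicase genes. In DDX21 and DDX27 the GGAC did not lie wholly within the peak. The first base was A at 11 of those 20 starts (55%), at 14 of the 38 others (36.8%) and at 44.4% of all annotated starts. Starts of 1 gene share sequence, and a match of letters does not mark a methylated site. The sequences below are the 30-base starts of the 5 genes in which a GGAC lay inside a peak of both lists. Peaks over them could be far longer, such as 4120 bases in DDX11 and chr2:38857031-38875924 in DHX57, both under DMSO. The FB23-2 peak of DDX31, chr9:132661106-132670401, also reached upstream of the printed start. A match of letters in such long segments does not locate the enriched site. In the sequences GGAC is in capitals and each runs 5′ to 3′ along the transcript.
DHX36: acagtggcttccgggcccGGACgccatttc
DHX34: gctcttgGGACcggaagttaaggcgttcgc
DHX57: agaaggcgccgGGACtgtgccgctgcagct
DDX31: aatcaggcagagactcggGGACtcagagac
DDX11: gttgttccggctgcctttcactgaggGGAC
These windows are chr3:154324458-154324487 on the minus strand for DHX36 and chr19:47349315-47349344 on the plus strand for DHX34. DHX57 lies at chr2:38875905-38875934 (minus), DDX31 at chr9:132663388-132663417 (minus, an annotated start inside the gene) and DDX11 at chr12:31073860-31073889 (plus). The peaks over them had deposited log2 folds of 4.0 under DMSO and 3.93 under FB23-2 in DHX36, which unwinds G-quadruplexes. They were 3.16 and 3.34 in DHX34, a nonsense-mediated decay factor, and 2.37 and 2.30 in the little-studied DHX57. In DDX31, a ribosome assembly factor, they were 1.64 and 1.78, and in DDX11, a helicase of sister chromatid cohesion, 1.36 and 1.11. The folds over these 5 starts ranged from among the highest of the family to near its median.

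The helicase genes carried more peaks per gene than the average gene with a peak, and most of these peaks were found under both treatments. The DMSO list held 179 peaks in 49 helicase genes, or 3.65 per gene against 2.65 over all genes. Under FB23-2 there were 163 in 48 genes, or 3.4 per gene against 2.61. The average over all genes included noncoding transcripts, and noncoding exons held 13.0% of all DMSO and 12.8% of all FB23-2 peaks. No comparison with protein-coding genes alone was made. Peaks counted as shared if 50% or more of the shorter of a same-strand pair, 1 from each list, was overlapped, and as list-only if not. By this rule 145 of the 179 DMSO peaks were shared (81.0%, exact 95% interval 74.5 to 86.5%) and 144 of the 163 FB23-2 peaks (88.3%, 82.4 to 92.8%). Of these, 27 pairs had the same start and end in both lists. The intervals cover the counting of peaks only, and the read depth behind the peaks is unknown.

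DMSO-only helicase peaks numbered 34 (18.99%, interval 13.5 to 25.5%), and DMSO-only peaks made up 20.1% of all DMSO peaks. FB23-2-only helicase peaks numbered 19 (11.7%, 7.17 to 17.6%), against 17.3% of all FB23-2 peaks. The DMSO share was close to the background, and the upper end of the FB23-2 interval reached it. The excess of 34 over 19 depended on the threshold: with an adjusted p under 0.001 the counts were 22 and 20, and among equal numbers of the most significant peaks of each list they were 19 and 21. At least 1 DMSO-only peak was present in 21 helicase genes (42.9%), where 34.4% of all genes had one, and at least 1 FB23-2-only peak in 16 (32.7%), where 30.6% of all genes had one. Peaks under DMSO only were found in DDX12P alone, and 4.8% of all genes had peaks under DMSO only. There were 0 helicase genes with peaks under FB23-2 only, and 3.88% of all genes were of that kind. In 21 genes every peak was shared, 9 genes had list-only peaks in both lists, 12 had DMSO-only ones alone and 7 FB23-2-only ones alone. This split was not counted over all genes, and it depends on the number of peaks per gene. It is therefore a description and not a trait of the family. The plot of peaks per gene shows that DDX60L, DDX5 and DDX52 held the most DMSO-only peaks, with 5, 4 and 3. Among equal numbers of top peaks these counts were 0, 2 and 1.

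**Figure D1:**
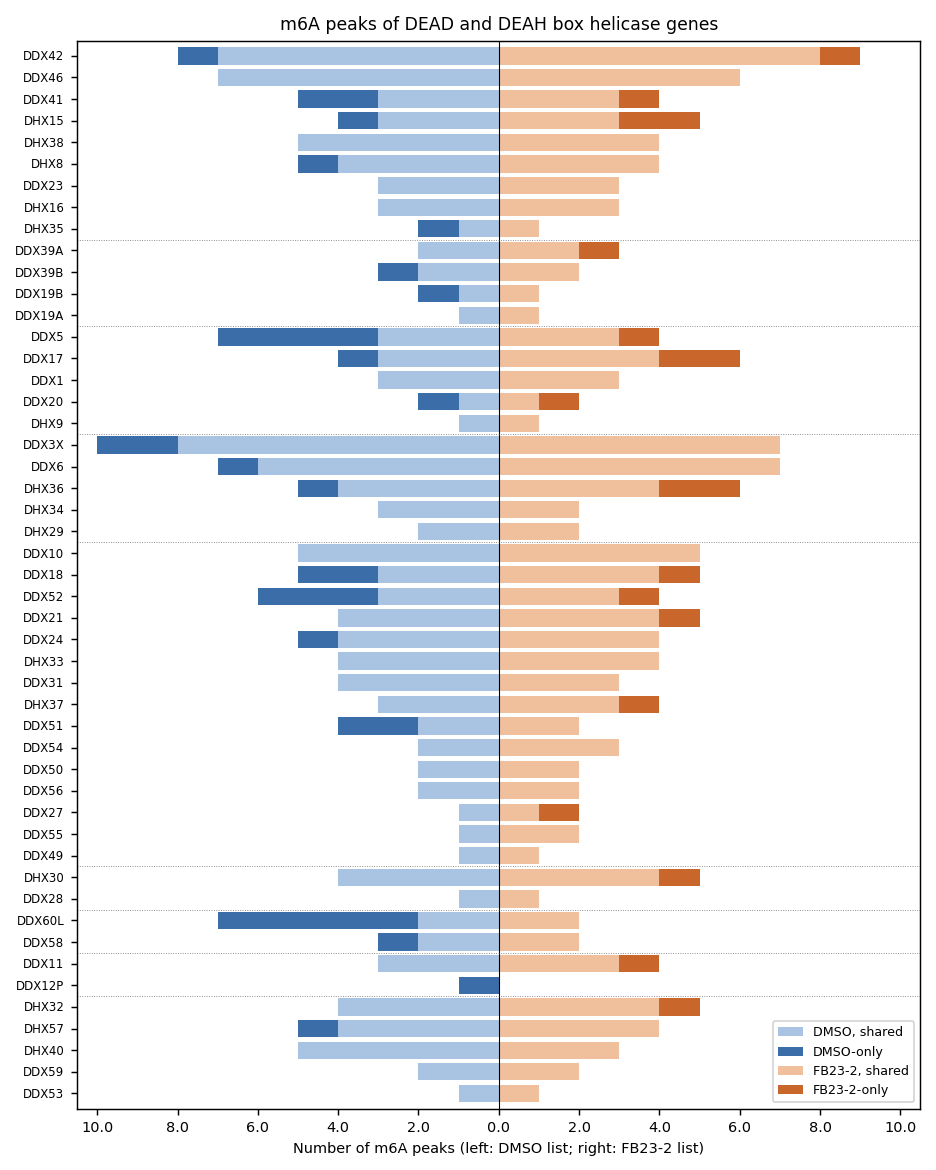
Number of m6A peaks of each of the 49 helicase genes in the DMSO list (bars to the left) and in the FB23-2 list (bars to the right), with shared peaks pale and list-only peaks dark, and genes ordered by role group (dotted lines, in the order of the text). DDX3X had 10 and 7 peaks, DDX42 8 and 9, and DDX60L 7 and 2, of which 5 were DMSO-only.

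By their medians, the list-only peaks of the helicase genes were shorter and less enriched than the shared ones, as they were over all genes. Their log2 folds ran from 0.40 to 1.54 under DMSO and from 0.72 to 1.94 under FB23-2, so that none reached 2. A fold under 1 was found for 18 of the 34 and 8 of the 19. The median was 0.98 for DMSO-only and 1.04 for FB23-2-only helicase peaks, against 1.36 and 1.33 for the shared ones, and over all genes 1.03 and 1.10 against 1.53 and 1.52. The median span was 200 and 175 bases for list-only helicase peaks and 1015 and 716.5 bases for shared ones, against 225 bases in both lists and 734.5 and 700 bases over all genes. By the overlap rule a long peak counts as shared once a short peak of the other list lies inside it. The comparison of spans is therefore not independent of that rule. Single list-only peaks were long, such as those of DHX15 (3556 bases) and DDX12P (2620 bases). A peak of the other list lay within 1000 bases on their strand for 22 of the 34 under DMSO (64.7%) and 11 of the 19 under FB23-2 (57.9%), against 50.2% and 52.3% of all list-only peaks. Within 100 bases there was one for 10 (29.4%) and 5 (26.3%), against 18.9% and 20.8%. Folds and p-values are those the authors deposited for each list separately, so they show no change of a peak between the treatments.

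**Figure D2:**
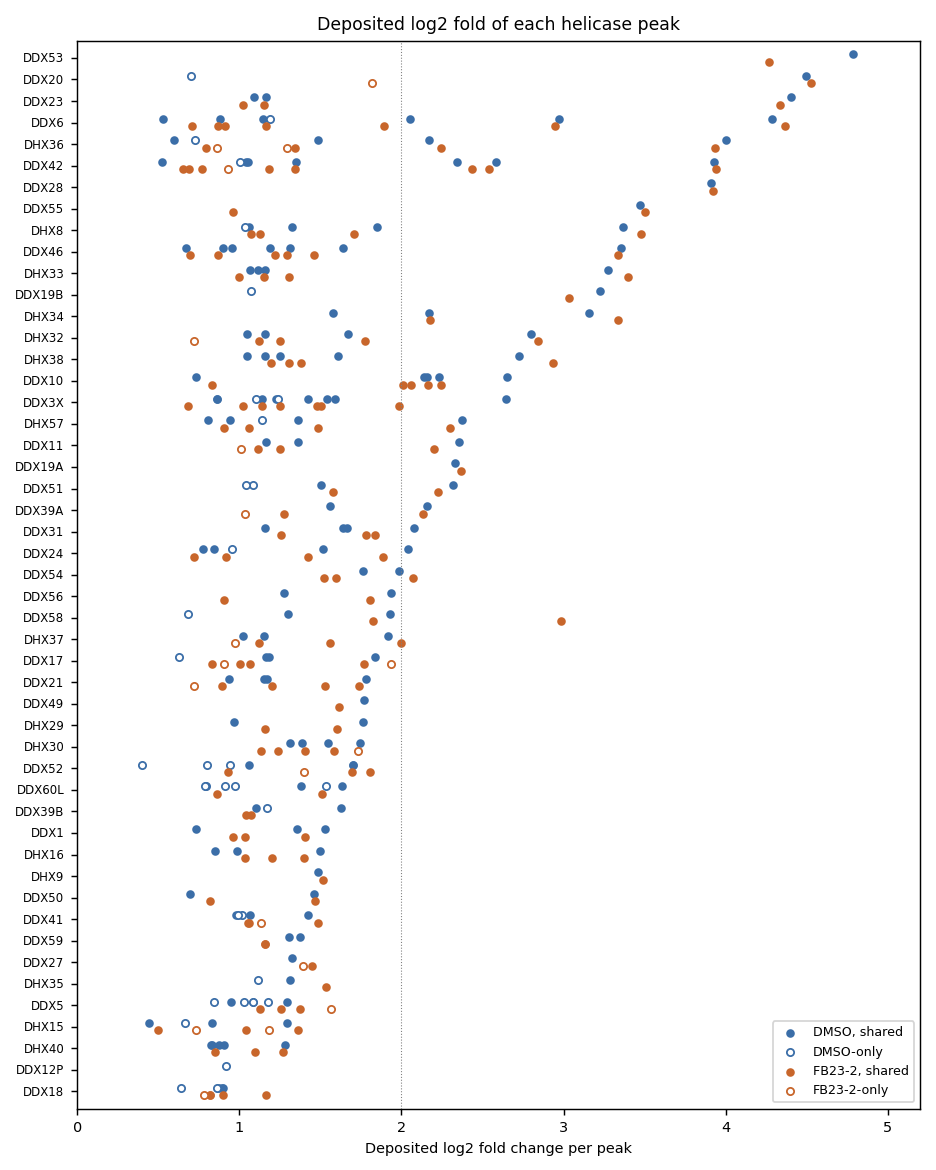
Deposited log2 fold change of every helicase peak (horizontal axis) by gene, ordered by the highest DMSO value, with DMSO peaks in blue, FB23-2 peaks in orange, shared peaks filled and list-only peaks open. All open points lie left of the dotted line at 2, while the strongest peaks of DDX53, DDX20 and DDX23 lie above 4 in both lists.

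The strongest helicase peaks were shared and, apart from that of DDX53, had similar values in both lists. DDX53, a cancer-testis gene without introns, had the highest, at 4.79 under DMSO and 4.27 under FB23-2, over a peak of 1175 and 2600 bases. It was followed by DDX20 with 4.49 and 4.52, DDX23 with 4.40 and 4.34, and DDX6 with 4.28 and 4.36. DHX36 had 4.0 and 3.93, DDX42 3.93 and 3.94, DDX28 3.91 and 3.92, and DDX55 3.47 and 3.50. In these 8 genes the peak lay in the 3′ UTR, except in DDX6 and DHX36, where it was annotated to the 5′ UTR, and in DDX42, where it was annotated to coding exon and ran to the annotated gene end. The highest fold of a gene had a median of 1.99 over the helicase genes in both lists, against 2.24 and 2.26 over all genes. It was at least 2 in 24 of 49 genes under DMSO (49.0%, all genes 57.0%) and in 23 of 48 under FB23-2 (47.9%, all genes 57.9%). The median over all helicase peaks was 1.19 under DMSO and 1.29 under FB23-2, where all peaks had 1.39 and 1.42. A deposited p of 0, the most significant value in the tables, was nevertheless found for 31 of 179 DMSO peaks (17.3%, 12.1 to 23.7%) and 31 of 163 FB23-2 peaks (19.02%, 13.3 to 25.9%), against 10.98% and 10.8% of all peaks.

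By position, fewer helicase peaks lay in 3′ UTRs and more in coding exons than among the peaks of all genes, once noncoding RNA was set aside. Of the peaks in 3′ UTRs, 5′ UTRs, coding exons and introns, the 3′ UTR held 55.1% of helicase peaks under DMSO (47.4 to 62.5%) and 52.1% under FB23-2 (44.2 to 60.0%), against 66.2% and 65.9% over all genes. Coding exons held 20.8% (15.1 to 27.5%) and 22.7% (16.5 to 29.9%), against 14.9% and 14.7%. The 5′ UTR held 17.98% (12.6 to 24.4%) and 17.8% (12.3 to 24.5%), against 13.5% and 14.1%, and its intervals included the share over all genes. Over every class, where 13.0% and 12.8% of all peaks but 1 helicase peak fell in noncoding exons, the 3′ UTR held 54.7% and 52.1% of helicase peaks against 57.3% in both lists, a difference within the intervals. Several peaks come from 1 gene, so the peaks behind these intervals are not independent. Peaks within 50 bases of the annotated gene end were 37 under DMSO (20.7%, all 23.2%) and 34 under FB23-2 (20.9%, all 22.7%).

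Among the list-only peaks, the FB23-2-only helicase peaks departed from the background in 3′ UTR and intron shares, and the DMSO-only ones did not. Noncoding exons are kept in these shares. They held 14.3% of all DMSO-only and 13.4% of all FB23-2-only peaks. Of the 19 FB23-2-only helicase peaks 3 were in a 3′ UTR (15.8%, 3.38 to 39.6%) and 7 in an intron (36.8%, 16.3 to 61.6%), where all FB23-2-only peaks had 42.3% and 11.1%. Of the 34 DMSO-only peaks 14 were in a 3′ UTR (41.2%, 24.6 to 59.3%) and 6 in an intron (17.6%, 6.76 to 34.5%). All DMSO-only peaks had 44.5% and 9.97%, within both intervals. The 7 intron peaks under FB23-2 belonged to DDX17 and DHX36 with 2 each and to DDX39A, DDX42 and DHX30 with 1 each. Of the 7 DMSO-only coding exon peaks 4 were in DDX60L.

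**Figure D3:**
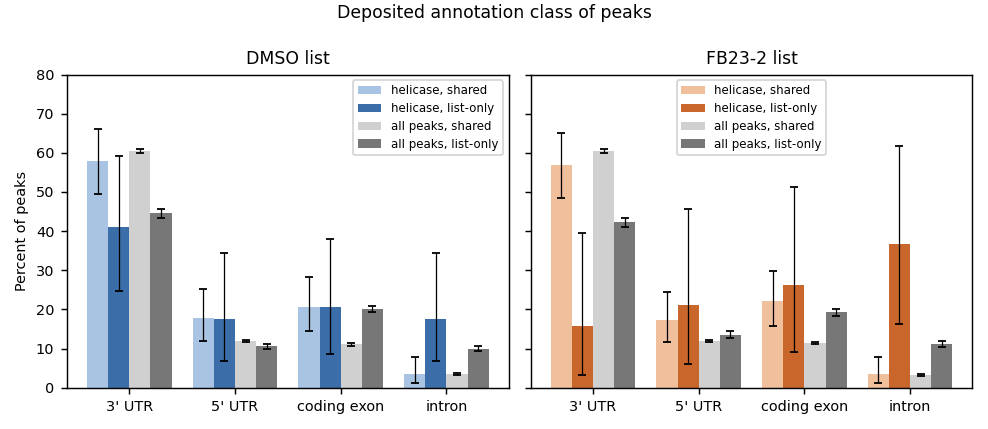
Percent of peaks in each deposited annotation class for the DMSO list (left) and the FB23-2 list (right), for helicase peaks and for all peaks, split into shared and list-only, with exact 95% intervals over peaks as error bars. The widest departures from all peaks are those of FB23-2-only helicase peaks, with a 3′ UTR share of 15.8% against 42.3% and an intron share of 36.8% against 11.1%, over 19 peaks.

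The 9 splicing helicases had 42 DMSO and 39 FB23-2 peaks, of which 6 and 4 were list-only. DDX42, which associates with the branch site machinery, had 8 and 9 peaks, with DMSO folds from 0.52 to 3.93. Its FB23-2-only intron peak (0.93) overlapped a DMSO peak at chr17:63800354-63805574 by less than the required 50%. DDX46, the relative of yeast Prp5 that acts at the branch site, had 7 and 6 peaks, all shared. Its FB23-2 peak at chr5:134830921-134856357 (3.34) covered a pair of DMSO peaks with folds of 0.95 and 3.36, so the difference of 1 in their number came from borders. DDX23, the counterpart of yeast Prp28 that helps release U1 from the 5′ splice site, had 3 shared peaks per list, and the strongest ended at the annotated gene end. DHX16 (Prp2) had 3 shared peaks per list, with highest folds of 1.50 and 1.40. DHX38 (Prp16) had 5 and 4, all shared, with 2.73 and 2.94 at the gene end. DHX8 (Prp22), which releases the spliced mRNA, had 3.37 and 3.48 in its strongest peak and 1 DMSO-only 3′ UTR peak of 1.03. DHX15 (Prp43), which takes spliceosomes apart, had 2 FB23-2-only peaks. The first spanned chr4:24580858-24584413 across the 5′ UTR (1.19, deposited p 7.18e-19), 4366 bases from the nearest DMSO peak, and the second (0.74) overlapped a DMSO-only peak (0.67). DDX41, a spliceosome component and DNA sensor, had 2 DMSO-only peaks of 1.01 and 0.99 and 1 FB23-2-only coding exon peak of 1.13. DHX35, found in catalytic spliceosomes, had 1 DMSO-only peak of 1.12 that ended at the gene end.

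Among the export helicases, both paralogous pairs had peaks at their 3′ ends under each treatment. DDX19B and DDX19A, which strip proteins from mRNA at the nuclear pore, each had 1 shared 3′ UTR peak with the same borders in both lists, ending at the annotated gene end. It measured 3.23 and 3.03 in DDX19B and 2.33 and 2.37 in DDX19A, and DDX19B had a further DMSO-only peak of 1.07. DDX39A and DDX39B load the export complex onto spliced mRNA. DDX39A had 2.16 and 2.13 over its 5′ UTR and an FB23-2-only intron peak of 1.04, and DDX39B had 1.62 and 1.07 over its 5′ UTR and a DMSO-only peak of 1.17 lying 75 bases from the nearest FB23-2 peak. All peaks of DDX19A and DDX19B overlapped peaks called on the opposite strand, and they were among 23 such DMSO helicase peaks in 16 genes and 20 such FB23-2 peaks in 14 genes. Whether libraries kept strand is not given in the sources used here, so reads of the opposing genes may not be told apart there.

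The transcription and RNA processing coregulators had 17 DMSO and 16 FB23-2 peaks, with 6 DMSO-only (35.3%, 14.2 to 61.7%) and 4 FB23-2-only (25%, 7.27 to 52.4%). DDX5, which acts in splicing, transcription and microRNA processing, held 4 of the 6. Its 7 DMSO peaks had folds from 0.84 to 1.30 and its 4 FB23-2 peaks from 1.13 to 1.56. The most significant of the DMSO-only peaks lay in an intron at chr17:64500874-64501073 (1.03, p 1.42e-68), 34 bases from the hairpin of MIR3064 and 1045 bases from the nearest FB23-2 peak. The other 3 were annotated to the 5′ UTR, at 1.18, 1.09 and 0.84. One of these abutted a shared FB23-2 peak, and another lay 25 bases from the FB23-2-only coding exon peak of DDX5 at chr17:64505461-64505784 (1.56, p 2.55e-18). With an adjusted p under 0.001 the DMSO-only peaks of DDX5 were 2 in place of 4. In other helicase genes the peaks nearest a microRNA hairpin were shared. The hairpins of MIR7106 in DDX54 and MIR573 in DHX15 lay inside peaks of both lists. That of MIR1226 in DHX30 lay 344 bases from a DMSO peak and 369 from an FB23-2 peak.

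DDX17, the paralogue of DDX5, had 4 DMSO and 6 FB23-2 peaks. An FB23-2-only peak at chr22:38505487-38505761, in an intron near the gene start, had the highest fold of any list-only helicase peak (1.94, p 3.23e-35) and lay 11872 bases from the nearest DMSO peak. The second FB23-2-only peak of DDX17 (0.90) lay 450 bases from a DMSO-only one (0.63) in the same part of the gene. A 3′ UTR peak of 2532 bases under DMSO (1.17) matched 2 FB23-2 peaks, one annotated to the 3′ UTR (0.83) and one to a coding exon (1.07). The peak at the gene end was shared, at 1.84 and 1.77. The paralogues thus differed in which list held more peaks, 7 against 4 in DDX5 and 4 against 6 in DDX17, and in neither did a list-only peak reach a log2 fold of 2. DDX20, a subunit of the SMN complex that assembles spliceosomal ribonucleoproteins, had an FB23-2-only 5′ UTR peak of 1.82 (p 9.72e-05) and a DMSO-only peak of 0.70 beside its strong 3′ UTR peak. DDX1, of the tRNA ligase complex, had 3 shared peaks per list with highest folds of 1.53 and 1.40, and DHX9, RNA helicase A, had 1 per list, at 1.49 and 1.52, with a p of 0.

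**Figure D4:**
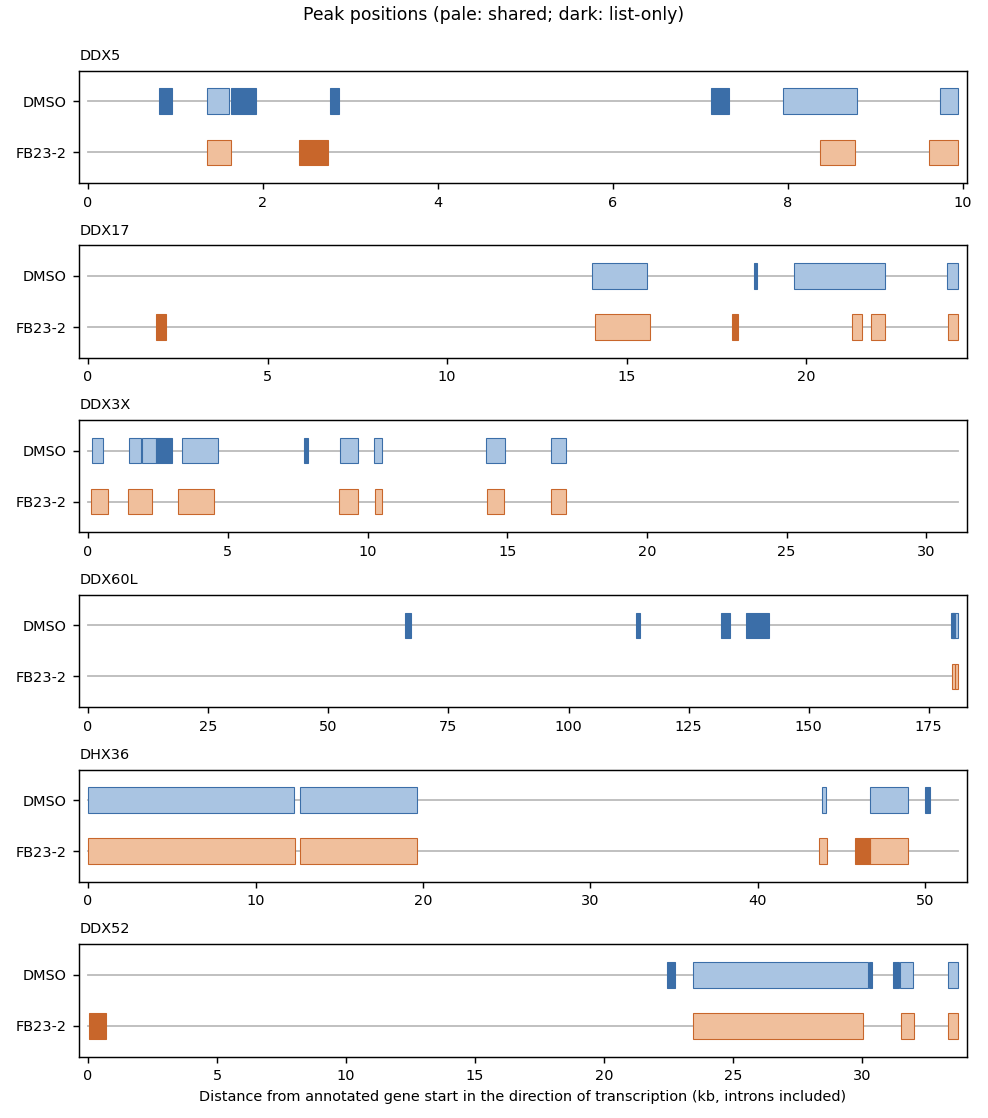
Peaks of DDX5, DDX17, DDX3X, DDX60L, DHX36 and DDX52 along the annotated gene, as distance from the gene start in kb with introns included (horizontal axis, own scale per gene), with the DMSO list in blue and the FB23-2 list in orange, shared peaks pale and list-only peaks dark; very short peaks are drawn slightly wider than to scale. DDX5 shows 4 dark DMSO peaks and 1 dark FB23-2 peak, and DDX60L shows 5 dark DMSO peaks and none under FB23-2.

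The helicases of translation, decay and G-quadruplexes had 27 DMSO and 24 FB23-2 peaks, with 4 and 2 list-only. DDX3X, which helps ribosomes start on structured mRNAs, had the most DMSO peaks of the family, 10, and 7 under FB23-2. Its DMSO-only peaks were both annotated to the 5′ UTR. One was 1.24 (p 9.65e-06) and lay 150 bases from an FB23-2 peak, and the other 1.11 (p 0.00253) at 1150 bases. Its highest folds were 2.64 under DMSO and 1.99 under FB23-2, and that FB23-2 peak covered a pair of DMSO peaks (2.64 and 1.59). The 3′ UTR peak of 550 bases at chrX:41349908-41350457 had the same borders in both lists, at 1.54 and 1.50. DDX6, which promotes decapping and forms P-bodies, had 7 peaks in each list. Its 5′ UTR peak of 4.28 and 4.36 spanned 18660 and 18635 bases including introns, and its single DMSO-only peak, of 1.19, lay in an intron 50 bases from an FB23-2 peak. DHX36 had 5 and 6 peaks, with a DMSO-only 3′ UTR peak of 0.73 and 2 neighbouring FB23-2-only intron peaks of 0.86 and 1.30. The nearer of that pair began 50 bases from a DMSO peak. DHX29, which helps scanning ribosomes through structure, and DHX34 had shared peaks only, with highest folds of 1.76 and 1.60 in DHX29.

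The ribosome assembly helicases, the largest group with 15 genes, had 49 DMSO and 48 FB23-2 peaks, of which 8 (16.3%, 7.32 to 29.7%) and 5 (10.4%, 3.47 to 22.7%) were list-only. Their highest folds ran from 0.90 in DDX18 to 3.47 in DDX55 under DMSO and from 1.16 in DDX18 to 3.50 in DDX55 under FB23-2. The DMSO-only peaks fell in DDX52 with 3, DDX18 and DDX51 with 2 each and DDX24 with 1. The weakest list-only peak of the family was among those of DDX52 (0.40), whose other 2 had 0.94 and 0.80. With strand ignored the count in DDX52 was 1 and not 3, and 2 of its DMSO-only peaks overlapped opposite-strand peaks of AC243585. DDX52 also had an FB23-2-only coding exon peak close to the gene start, chr17:37642757-37643418 (1.40, p 2.99e-08), 21747 bases from the nearest DMSO peak. In DDX51 the pair had 1.09 and 1.04, and the first overlapped an FB23-2 peak by less than 50%. DDX27 had an FB23-2-only 5′ UTR peak of 1.39 (p 2.81e-11), which lay 50 bases from its annotated gene start. DHX37, needed for maturation of the small subunit, had an FB23-2-only coding exon peak of 0.97, 15659 bases from the nearest DMSO peak.

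The nucleolar paralogues DDX21 and DDX50 are neighbouring genes on chromosome 10. DDX21 had 4 peaks under DMSO, all shared, and 5 under FB23-2. The extra one, in the 3′ UTR at chr10:68983746-68983945, had the lowest deposited p of the FB23-2-only helicase peaks, 3.26e-106, with a fold of only 0.72. DDX50 had 2 shared peaks per list, with 1.46 and 1.47 near the gene end. DDX18 had 5 peaks in each list, with DMSO-only peaks of 0.86 and 0.64 and an FB23-2-only 3′ UTR peak of 0.78 (p 1.66e-46). The reference names 6 pseudogenes of DDX18, and for 11 helicase genes it names at least 1, so that some of their reads may be ambiguous. The other ribosome assembly genes, DDX10, DDX31, DDX49, DDX54, DDX55, DDX56 and DHX33, had shared peaks only. In DDX54 and DDX55 a single DMSO peak matched a pair of FB23-2 peaks, and in DDX31 the reverse held.

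Both mitochondrial helicases, which take part in assembly of the mitochondrial ribosome, had all their DMSO peaks shared. DDX28, a gene without introns, had 1 peak per list, at 3.91 and 3.92. DHX30 had 4 and 5, and the added FB23-2-only intron peak had 1.73 (p 7.62e-08) and lay 325 bases from a DMSO peak.

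The RNA sensing group had the largest share of DMSO-only peaks, 6 of 10 (60%, 26.2 to 87.8%), against 0 of 4 under FB23-2 (interval up to 60.2%). These came from DDX60L with 5 and DDX58 with 1. DDX60L, an interferon-induced gene, had 7 DMSO peaks with folds from 0.79 to 1.64 and 2 FB23-2 peaks of 0.86 and 1.51. Of the 5 DMSO-only peaks 4 lay in coding exons between 38002 and 112595 bases from the nearest FB23-2 peak, with folds of 1.54, 0.91, 0.80 and 0.79. Their deposited p-values were among the weakest in the family, from 3.39e-04 to 0.0478. At an adjusted p under 0.001 the count in DDX60L was 1 and not 5, and in the whole group 1 and not 6. Among the same number of most significant peaks of each list both counts were 0. DDX58, which encodes the sensor RIG-I, had a shared 3′ UTR peak of 1.30 under DMSO (p 2.97e-05) and 2.99 under FB23-2 (p 5.02e-17), and a second of 1.93 and 1.83. Its DMSO-only peak (0.68, p 0.00636) began on the base after an FB23-2 peak ended. DDX60 and DHX58 (LGP2), also interferon-induced, had no assigned peak in either list.

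**Figure D5:**
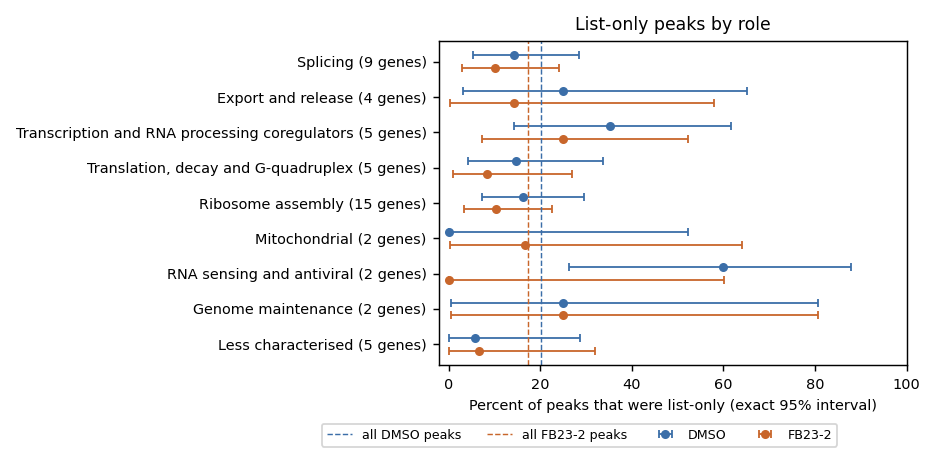
Percent of the peaks of each role group that were list-only, for the DMSO list (blue) and the FB23-2 list (orange), with exact 95% intervals over peaks as bars and the share among all peaks of each list as a dashed line. Each interval includes the dashed line of its list except that of the RNA sensing group under DMSO, which stands at 60% under DMSO and 0% under FB23-2 with 2 genes. Of its 6 DMSO-only peaks 5 came from DDX60L, so the peaks behind this interval are not independent. The 6 became 1 at an adjusted p under 0.001 and 0 among equal numbers of top peaks.

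DDX11 had 3 DMSO and 4 FB23-2 peaks, with 2.36 and 2.20 at the gene end and an FB23-2-only 3′ UTR peak of 1.01. DDX12P, a transcribed pseudogene closely related to DDX11, had a single DMSO-only peak of 0.92 (p 4.76e-06) over a noncoding exon, and reads of this pair may have been split between them, so its call is uncertain. The less characterised helicases had 17 DMSO and 15 FB23-2 peaks with 1 list-only peak each. These were a DMSO-only 3′ UTR peak of DHX57 (1.14) and an FB23-2-only 5′ UTR peak of DHX32 (0.72), 50 bases from a DMSO peak. DHX32 had its strongest peak, of 2.80 and 2.84, over the gene start, with a span of 41716 and 41741 bases including introns. DHX40 had 5 DMSO and 3 FB23-2 peaks, all shared, because 1 FB23-2 peak of 1.10 covered 3 DMSO peaks of 0.82, 0.88 and 0.83. DDX59 had 2 shared peaks per list, with highest folds of 1.37 and 1.16.

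The reference lists 56 genes that meet the rule, with DDX58 counted under its older name, and 7 of them had no assigned peak: DDX25, DDX3Y, DDX4, DDX43, DDX47, DDX60 and DHX58. DDX4 and DDX25 are known from the germ line, and DDX43 is a cancer-testis gene. For DDX47, a ribosome assembly factor, peaks lay within the span but carried the name of another gene. Peaks on its strand within its annotated span were assigned by the authors to the neighbour APOLD1, and the strongest ended exactly at the annotated end of DDX47, at chr12:12829492-12829981 under DMSO (1.75, p 3.04e-290) and chr12:12829542-12829981 under FB23-2 (1.71, p 1.18e-275). A further DMSO-only peak of 0.90 lay near the start of DDX47. Which gene the reads of these peaks came from was not tested. Within the spans of the 49 helicase genes 0 peaks of the same strand were assigned to another gene. An absent peak does not show an absent transcript, since the tables give no expression.

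Other helicases of the same superfamily and the known partners of these enzymes were set beside them. Of 25 related helicases 22 had a peak, with 16 of 86 DMSO peaks (18.6%) and 21 of 91 FB23-2 peaks (23.1%) list-only. AQR, an intron-binding spliceosomal helicase, had 5 DMSO and 10 FB23-2 peaks with 5 FB23-2-only, and DICER1 had 5 and 7 with 3. Neither had a DMSO-only peak. Others had more peaks under DMSO: HELZ had 10 and 7, with 4 DMSO-only and 2 FB23-2-only, ERCC3 7 and 5, with 3 and 1, and ERCC2 5 and 3, with 2 and 0. YTHDC2, an m6A reader with a DEAH-type helicase core that the name rule leaves out, had 3 shared peaks per list, with highest folds of 1.41 and 1.38. Of 29 listed cofactors, such as G-patch proteins and MIF4G-domain proteins, 28 had a peak, with 17 of 95 (17.9%) and 11 of 93 (11.8%) list-only. Of 11 hepatocyte and liver cancer markers 4 had a peak (HNF4A, KRT8, KRT18 and EPCAM). The hepatocyte and liver cancer genes ALB, APOA1, APOB, TTR, SERPINA1, AFP and GPC3 had none in either list. Peaks were also found in CD68 of 3 leukocyte markers, CDH5 of 3 endothelial markers and 3 of 3 fibroblast markers. Levels of these markers were not measured here, so the label of the cells was not checked beyond the presence of peaks. The deposited KEGG column placed 9 helicase genes among 128 spliceosome genes, out of 16810 genes with a peak. These 9 are not the splicing group above, as they include DDX5 and DDX39B and leave out DDX41 and DHX35.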

How the data were processed

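MeRIP-seq input and immunoprecipitated RNA of 3 DMSO and 3 FB23-2 samples were sequenced, per the labels' protocols, from fragmented poly(A) RNA. HISAT2, Cuffdiff and GRCh38 are named per the submitters' processing notes; their versions and the peak caller are not given in the sources used. Each deposited table holds for every peak, per the file headers, a log2 fold change with its p-value before and after adjustment. The deposited log2 fold was taken to compare immunoprecipitated with input RNA, although no header states it. The deposited p-values were used only to describe and filter peaks within a list. Deposited starts count from 0 and are printed 1-based; spans include introns, and 0 columns of unmapped samples were used.

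Shared peaks overlapped by at least 50% of the shorter on the same strand. Intervals are exact (Clopper-Pearson, 95%). Sequences, gene spans and pseudogene names came from RefSeq tables for GRCh38.p14, in which 48 of the 49 symbols matched directly. The tools were Python 3.11.15, scipy 1.17.1, pandas 2.3.3, numpy 2.4.6 and matplotlib 3.10.9, and the overlap step was tested on simulated data. Members, role groups and lists were chosen with earlier results of these data known. Named by rule were genes with list-only peaks or peaks in 1 list, the 8 highest DMSO folds, the 5 genes with most peaks and paralogue pairs; the others are given by count and range or as examples chosen after their values were seen. Proteins and a motif search within peaks were not used here. Alternatives were a stricter adjusted p, a higher fold, equal numbers of top peaks, other overlap rules and strand ignored.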

Additional observations from a re-analysis of the deposited data

How the results depend on the processing

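With a fold of at least 4, 33 DMSO and 31 FB23-2 helicase peaks remained, of which 87.9% and 93.5% were shared and 4 and 2 list-only, in 4 and 2 genes (12.1% and 6.45%, all peaks 15.2% and 16.3%). Peaks in 1 list alone were then found in 3 genes under DMSO and 2 under FB23-2, 63.6% and 67.7% of peaks lay in a 3′ UTR, and the median log2 folds were 2.65 and 2.94. Fewer peaks are left by construction. In the full lists 0 list-only helicase peaks reached a log2 fold of 2. The list-only peaks at this cut were therefore shared in the full lists, and their partners fell below it. The genes with peaks in 1 list alone at this cut had peaks in both lists before it. Among the 33470 most significant peaks of each list, 87.4% of DMSO helicase peaks were shared and 19 were DMSO-only against 21 FB23-2-only, so the excess of DMSO-only over FB23-2-only peaks (34 against 19) turned; the shares were 12.6% and 13.7%, and 14.8% and 13.8% over all peaks, and the cause was not tested. With an adjusted p under 0.001, 22 peaks were DMSO-only and 20 FB23-2-only (13.6% and 12.5%, all peaks 16.5% and 16.4%). When 50% of both peaks had to overlap, 66.5% and 73.0% were shared, and 60 DMSO-only and 44 FB23-2-only peaks lay in 32 and 30 genes, as the stricter rule makes peaks with moved borders list-only; these were 33.5% and 27.0%, against 35.6% and 34.1% of all peaks. Over all planned and added alternatives, 23 values of the whole family moved, as given here, and 45 stayed within 1.5 times or within their interval. Of the list-only counts of single genes and role groups, 154 moved and 542 stayed. When 50% of both peaks had to overlap, the DMSO-only count moved in 18 of 49 genes and the FB23-2-only count in 20. Role group counts then moved in 5 of 9 groups under DMSO and 7 of 9 under FB23-2. A setting chosen after seeing the data, no peak of the other list within 100 bases, left 24 DMSO-only and 14 FB23-2-only peaks in 17 and 13 genes. No paired analysis was possible because no column of the tables belongs to a sample or replicate. Leaving out single samples and an overlap of exon blocks were not run, as the tables hold no values per sample and spans alone were used. Read depth is unknown.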
